A study of Mus musculus with 6 samples.

Results

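The genes described here encode the enzymes and transporters that build and sulfate glycosaminoglycan chains in corneal keratocytes. The members are a list of 58 genes for keratan, chondroitin, dermatan and heparan sulfate chains and hyaluronan. It was chosen with earlier results of these data known. All 58 were found by symbol among the 17606 genes of the expression table. Keratocytes, the resident mesenchymal cells of the corneal stroma, were isolated from the cornea by flow cytometry. The mice were 10 weeks old, and the labels give 3 doses of tamoxifen and a period of 1 month. One group carried floxed Ptch1 (Ptch1 f/f) and Prrx1-CreERT, a tamoxifen-inducible Cre recombinase driven by Prrx1, which marks stromal cells, recombines in corneal endothelial cells too and is not restricted to the cornea. The other group was the age-matched control, titled WT in the labels, whose alleles are not stated further and which carries the same tamoxifen treatment in the labels. Each group had 3 libraries, and whether a library came from 1 mouse or from pooled corneas is not stated. Ptch1 is the receptor through which the Hedgehog pathway is kept off, so the comparison asks how keratocytes differ when Hedgehog signaling is switched on.

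Glycosaminoglycans are long, negatively charged sugar chains that hold water between collagen fibrils. In the cornea keratan sulfate is attached to lumican, keratocan and mimecan, and chondroitin and dermatan sulfate to decorin and biglycan, and both are known for keeping collagen fibrils evenly spaced in the transparent stroma. A chain is started on a core protein, lengthened by glycosyltransferases that add sugars in turn, and then sulfated by sulfotransferases that take sulfate from a common activated donor. Hyaluronan differs in that it carries neither a core protein nor sulfate and is made at the plasma membrane.

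The gene named in the label, Ptch1 (Entrez 19206), was at 7.89, 5.47 and 16.2 CPM (counts scaled to a common library size) in control replicates 1 to 3 and at 185, 221 and 251 CPM in the libraries labelled Ptch1-ablated. The gene total was therefore higher where the label gives a deletion, and gene totals do not resolve the floxed exons. The group is called the labelled libraries below for that reason, and every direction rests on the labels. The pathway genes Gli1 and Hhip were at 0.891 ± 0.778 and 1.07 ± 0.454 CPM in controls and at 128 ± 2.49 and 1076 ± 61.0 CPM in the labelled libraries (SD, n = 3 each). Library totals ran from 20258414 to 24788039 counts, and a count of 0 allows up to 3 counts, or 0.121 to 0.158 CPM, for counting error only. On the second principal component, which held 18.8% of the variance, control replicate 1 (score 42.6) and labelled replicate 2 (26.2) stood apart from the other libraries, which scored from -29.2 to -7.16. Results that change without either of them are given as such.

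The identity of the cells was checked with marker genes. Of 8 keratocyte markers 5 were lower in the labelled libraries (Kera, Aldh3a1, Aldh1a1, Cd34 and Angptl7), Lum and Dcn did not pass, and Ptgds had too few counts to be tested. The summed keratocyte markers were at 95227 to 108840 CPM in controls and at 57850 to 76281 CPM in the labelled libraries. Of 6 vascular endothelial markers 4 were higher (summed level 585 to 787 CPM in controls and 691 to 750 CPM in the labelled libraries), and of 6 mural cell markers 2 were higher (903 to 1094 and 1280 to 1381 CPM). Most of the endothelial sum was Kdr, at 464, 557 and 639 CPM in controls and 402, 428 and 431 CPM in the labelled libraries. Kdr was thus lower without overlap but did not pass (edgeR adjusted p = 0.112). The other 5 endothelial markers were higher without overlap. Of 8 corneal epithelial markers 3 were lower and 1 was higher, with a summed level of 39.6 to 69.0 CPM in controls and 2.68 to 9.68 CPM in the labelled libraries. The epithelial keratin Krt12 was at 0 in all 3 controls. Leukocyte, Schwann cell and corneal endothelial markers included 1, 1 and 2 higher genes and none that was lower, and none of 4 melanocyte markers tested passed. The part of these markers in the results below was not tested. In bulk libraries fewer cells of a type and less RNA per cell cannot be told apart.

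Levels were compared between genes as TPM, a unit that corrects for transcript length. In control keratocytes 2 enzymes of keratan sulfate stood far above the rest. B3gnt7, which extends the keratan sulfate chain with N-acetylglucosamine, had 735 ± 36.0 TPM (SD, n = 3) and ranked 150 of all genes, and Chst5, the corneal N-acetylglucosamine 6-O-sulfotransferase, had 713 ± 48.1 TPM (SD, n = 3) and ranked 155. The difference between these neighbours was within their spread. They were followed by the chondroitin sulfotransferase gene Chst12 (375 ± 28.6 TPM), the sulfate donor synthase gene Papss1 (242 ± 21.2 TPM) and the Golgi transporter gene Slc35b2 (206 ± 18.1 TPM, SD, n = 3 each). Of the 58 members 10 had a mean of at least 100 TPM in controls, 35 at least 10 TPM and 51 at least 1 TPM.

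In the labelled libraries this order differed. Chst5 came first at 466 ± 55.3 TPM, followed by Chst12 at 270.3 ± 46.9 TPM and the heparan polymerase gene Ext2 at 229 ± 30.4 TPM (SD, n = 3 each). B3gnt7 was at rank 8 among the members with 136 ± 21.7 TPM (SD, n = 3), rank 1140 of all genes. All 58 members together made up 0.367%, 0.397% and 0.377% of the TPM in control replicates 1 to 3 and 0.321%, 0.297% and 0.272% in labelled replicates 1 to 3. The sum was not lower in every role. Keratan sulfate backbone and capping genes, B3gnt7 among them, summed to 1033 to 1172 TPM in controls and 475 to 601 TPM in the labelled libraries. Keratan sulfate sulfation genes, with Chst5, summed to 687 to 780 and 446 to 544 TPM. Heparan polymerization genes went the other way, at 259 to 297 and 384 to 434 TPM.

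**Figure D1:**
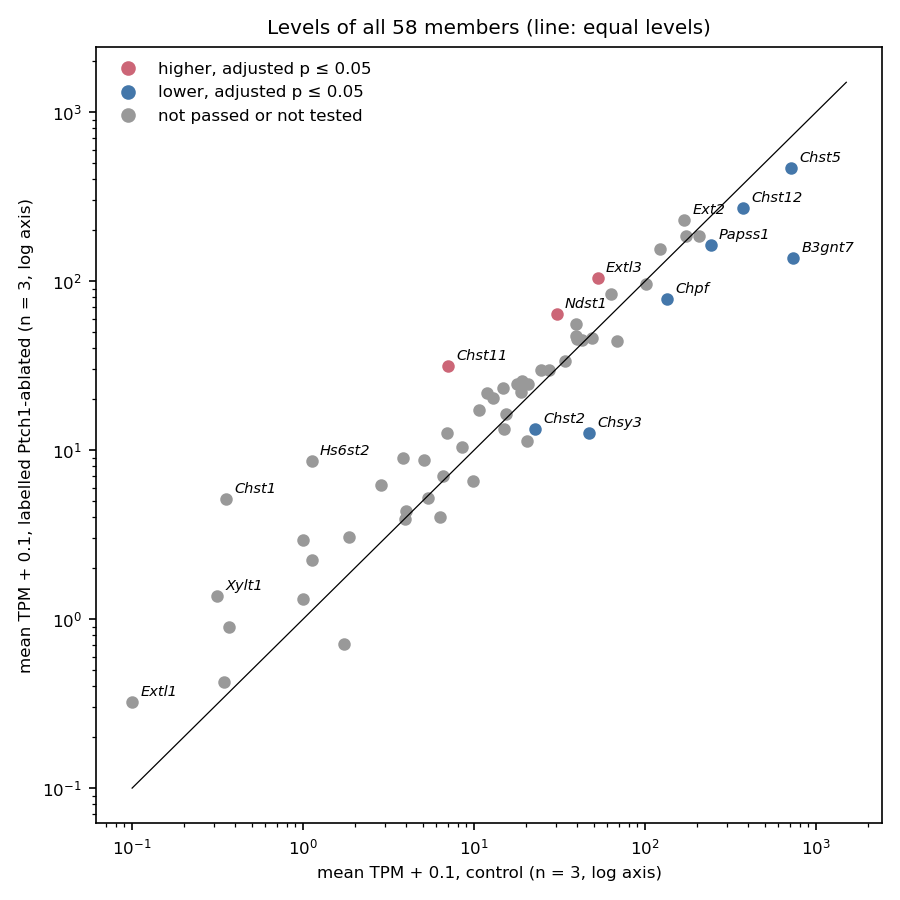
Mean level of each of the 58 members in control libraries (horizontal axis) and libraries labelled Ptch1-ablated (vertical axis), both as TPM + 0.1 on log axes with n = 3 each, where the line marks equal levels. B3gnt7 lies farthest below the line among the abundant members, at 735 TPM in controls and 136 TPM in the labelled libraries, and Chst11 lies above it at 6.97 and 31.4 TPM.

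Groups were then compared gene by gene with edgeR's quasi-likelihood test across all genes. Of the 57 members with enough counts to be tested, 7 were lower (Chst2, Chst5, B3gnt7, Chsy3, Chpf, Chst12 and Papss1) and 3 were higher (Chst11, Extl3 and Ndst1) in the labelled libraries with an adjusted p up to 0.05. Over all 13888 genes tested 3.80% were lower and 4.68% were higher at this threshold, 8.48% in all, against 17.5% of the members. The members were chosen with earlier results of these data known, and these shares were not compared by a test. When a fold change of at least 2 was required as well, 3 members were lower (Chst2, B3gnt7 and Chsy3) and 1 was higher (Chst11), against 2.13% lower, 3.36% higher and 5.49% in either direction among all genes. The median log2 fold change of the members was 0.035, beside 0.0046 over all genes tested. The groups did not overlap for 20 members, 10 in each direction, beside 14.1% higher, 13.3% lower and 27.4% in either direction among all genes tested. Another 9 members had an unadjusted p under 0.05 without passing. Extl1, the member that was not tested, had 0 counts in 5 libraries and 24 counts in labelled replicate 2.

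**Figure D2:**
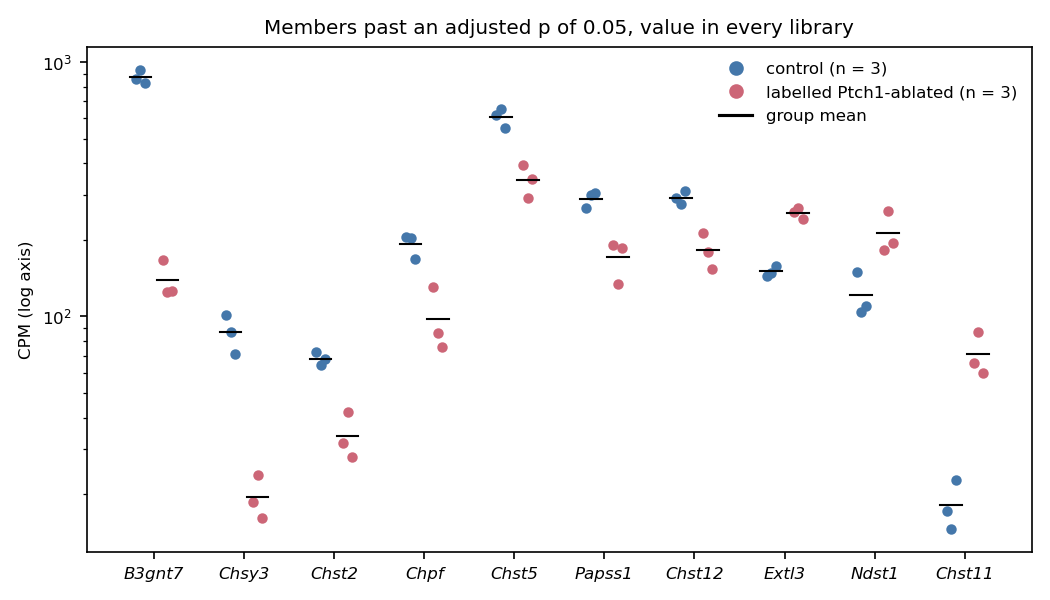
CPM on a log axis in each of the 3 control libraries and the 3 libraries labelled Ptch1-ablated for the 10 members past an adjusted p of 0.05, with a line at each group mean. In all 10 the groups do not overlap, which is likely for genes picked by a test on these same values. The genes run from B3gnt7 on the left, at 825 to 930 CPM in controls against 125 to 166 CPM, to Chst11 on the right. Chst11 is at 14.5 to 22.7 CPM in controls against 59.9 to 86.5 CPM.

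The keratan sulfate enzymes held the largest fall. B3gnt7 (Entrez 227327) was at 859, 930 and 825 CPM in control replicates 1 to 3 and at 166, 125 and 126 CPM in labelled replicates 1 to 3. Every labelled library lay below every control, and the means differed 6.26-fold. The log2 fold change was -2.65 ± 0.15 (SE), adjusted p = 5.29e-07 in edgeR, and over the alternative settings it stayed between -2.79 and -2.44. The exons of B3gnt7 overlap by 520 bases with Gm28626, a gene on the opposite strand that is not in the table, and strandedness is not stated. B3gnt2, the other chain-extending N-acetylglucosaminyltransferase on the list, was at 32.4, 47.3 and 21.8 CPM in controls and 40.0, 21.8 and 33.9 CPM in the labelled libraries, which overlap (edgeR adjusted p = 0.929). Its exons overlap by 2449 bases with Gm28048 and by 288 bases with Gm12057, both on the same strand. They also overlap by 22 bases with 9130230N09Rik on the opposite strand, and none of these genes is in the table.

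Of the 3 keratan sulfate sulfotransferases 2 were lower. Chst5 (Entrez 56773), the mouse gene with the role of human CHST6, in which mutations cause macular corneal dystrophy, was at 620, 655 and 552 CPM in controls and 394, 293 and 346 CPM in the labelled libraries. Its groups did not overlap, and the log2 fold change was -0.82 ± 0.14 (SE), adjusted p = 0.00282 in edgeR. Chst2, another N-acetylglucosamine 6-O-sulfotransferase gene, was at 72.6, 64.2 and 67.7 CPM in controls and 31.6, 42.2 and 28.0 CPM in the labelled libraries, 2.01-fold lower in the mean. Its log2 fold change was -1.01 ± 0.21 (SE), adjusted p = 0.00920 in edgeR, and limma no longer called it on log2(TPM + 1) (-0.77) or log2(TPM + 0.1) (-0.81). Chst1, which sulfates the galactose of keratan sulfate, had 0, 0 and 18 counts in controls and 92, 168 and 66 counts in the labelled libraries. It was thus near the floor in controls, and it did not pass (log2 change 4.07 with an SE of 1.39, adjusted p = 0.106 in edgeR), but did with DESeq2, in both limma fits and without control replicate 3, the control with counts. Its fitted value then was 9.69, and 5.79 with the replicate block, and with the remaining controls at 0 counts the former depends on the prior count and is no bound.

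The galactosyltransferases that alternate with these enzymes did not pass. B4galt1 was at 318, 312 and 301 CPM in controls and 308, 308 and 237 CPM in the labelled libraries, so that the groups were close and 1 labelled library was lower than the rest. B4galt2, B4galt3 and B4galt4 had group means from 4.82 to 42.2 CPM. Fut8, which adds core fucose to N-glycans, had 73.0 ± 18.9 and 85.4 ± 10.2 CPM (SD, n = 3 each). Among the sialyltransferases, which cap chain ends, St3gal2 was at 28.5 ± 6.75 CPM in controls and 42.9 ± 10.4 CPM in the labelled libraries (SD, n = 3 each, log2 change 0.59 with an SE of 0.26, adjusted p = 0.223 in edgeR), and St3gal1 and St3gal3 did not pass either. In all, 1 of these 10 backbone and capping genes passed.

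**Figure D3:**
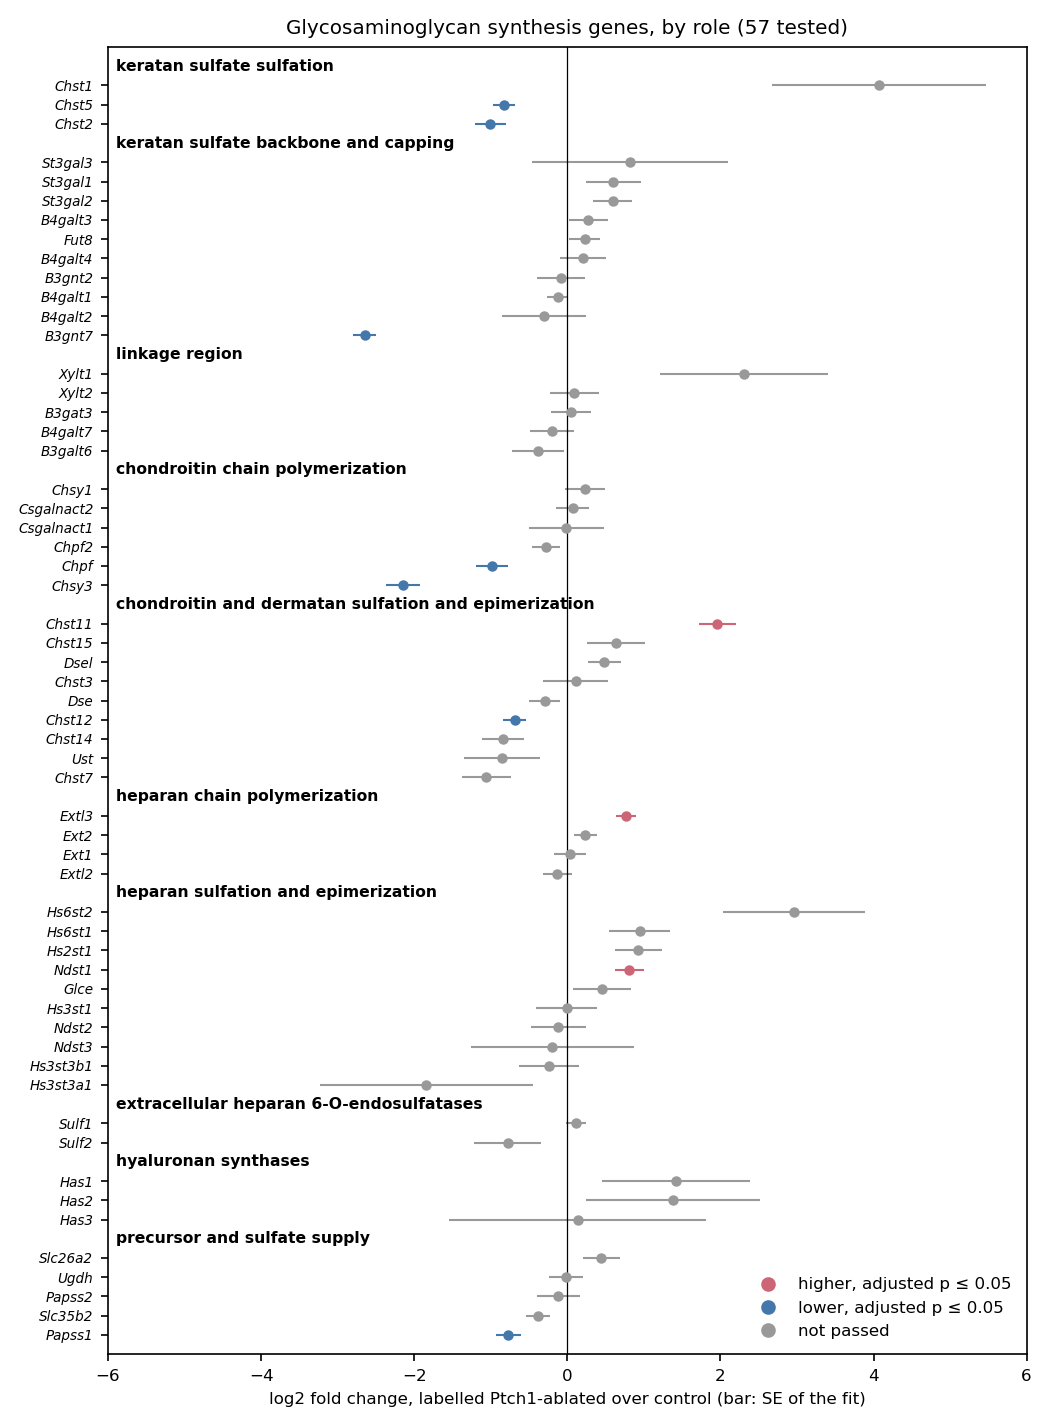
Log2 fold change of the libraries labelled Ptch1-ablated over controls for the 57 members tested, grouped by role, with bars of 1 SE from the edgeR fit. Lower members past the threshold lie among keratan and chondroitin enzymes and at Papss1, from -2.65 (B3gnt7) to -0.69 (Chst12), and the higher ones are Chst11 (1.96), Ndst1 (0.81) and Extl3 (0.76).

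The promoters of B3gnt7, Chst5 and Chst11 are shown because these genes are the largest fall, the most abundant member in the labelled libraries and the largest rise past the threshold. Each line gives the 250 bases before the transcription start in RefSeq (GRCm38.p6), 5′ to 3′ on the gene's strand, with every GC box (GGGCGG or its reverse complement CCGCCC) in capitals. The windows are chr1:86302971-86303220 on the plus strand, chr8:111910200-111910449 on the minus strand and chr10:82985247-82985496 on the plus strand.
B3gnt7: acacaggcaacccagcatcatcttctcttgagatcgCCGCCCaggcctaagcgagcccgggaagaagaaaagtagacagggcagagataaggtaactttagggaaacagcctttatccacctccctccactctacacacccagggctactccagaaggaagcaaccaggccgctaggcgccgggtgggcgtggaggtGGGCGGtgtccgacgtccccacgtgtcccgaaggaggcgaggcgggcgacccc
Chst5: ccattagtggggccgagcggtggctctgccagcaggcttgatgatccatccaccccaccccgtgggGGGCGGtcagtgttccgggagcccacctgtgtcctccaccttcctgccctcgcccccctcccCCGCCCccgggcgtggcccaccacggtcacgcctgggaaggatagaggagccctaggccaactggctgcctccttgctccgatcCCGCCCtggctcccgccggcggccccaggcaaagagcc
Chst11: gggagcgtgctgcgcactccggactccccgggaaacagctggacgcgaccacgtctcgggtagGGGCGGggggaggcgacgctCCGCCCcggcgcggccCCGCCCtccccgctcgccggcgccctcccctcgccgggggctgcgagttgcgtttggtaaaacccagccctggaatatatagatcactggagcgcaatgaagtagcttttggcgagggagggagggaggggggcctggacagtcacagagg
The B3gnt7 window held 2 GC boxes and a GC content of 61.6%, and those of Chst5 and Chst11 held 3 each with 71.6% and 70.0% GC. GC boxes were found in 32.7% of all 32851 RefSeq promoter windows of this length and in 35 of the 58 windows that belong to 46 members. The letters GACCACCCA of the Gli consensus, searched on both strands, were found in 0 of the member windows and in 0.225% of all windows. No promoter entry matched Chsy3, Extl3 or Ndst1. The bases just after the RefSeq start occur within a GENCODE transcript of B3gnt7 and of Chst5, but in none of Chst11. Whether they lie at the start of such a transcript was not tested. A match or its absence describes these letters in this window only.

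The 5 enzymes of the linkage region, the tetrasaccharide that joins chondroitin and heparan chains to the core protein, did not pass the test. The xylosyltransferases that start it differed in level, with Xylt2 at 13.4 ± 3.76 and 14.3 ± 2.22 CPM and Xylt1 at 0.304 ± 0.119 CPM in controls and 1.53 ± 0.813 CPM in the labelled libraries (SD, n = 3 each, edgeR adjusted p = 0.924 and 0.264). Xylt1 had 4, 8 and 7 counts in controls and 25, 58 and 26 in the labelled libraries, so that its groups did not overlap at very low levels. B3gat3, which adds the last sugar of the linkage and had the highest TPM of the 5, was at 23.3, 34.5 and 22.6 CPM in controls and 25.7, 23.9 and 33.7 CPM in the labelled libraries. B4galt7 and B3galt6, which add the galactoses, had group means from 17.1 to 33.2 CPM, and all 3 genes overlapped between groups.

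Among the enzymes that polymerize chondroitin, 2 of 6 were lower and none was higher past the threshold. Of all genes tested 3.80% were lower and 4.68% were higher. Chsy3 (Entrez 78923), a chondroitin synthase gene, was at 101, 87.1 and 71.2 CPM in controls and 18.6, 23.8 and 16.1 CPM in the labelled libraries. The groups were 4.43-fold apart in the mean without overlap, with a log2 fold change of -2.15 ± 0.22 (SE), adjusted p = 6.86e-05 in edgeR. Its paralog Chsy1 was at 27.5, 40.2 and 25.7 CPM in controls and 32.1, 46.8 and 30.6 CPM in the labelled libraries, where the groups overlapped (edgeR adjusted p = 0.693). Chpf, the chondroitin polymerizing factor that works together with a synthase, was at 205, 203 and 168 CPM in controls and 131, 85.8 and 75.4 CPM in the labelled libraries. Its log2 fold change was -0.98 ± 0.21 (SE), adjusted p = 0.01003 in edgeR, a call lost without labelled replicate 2 (-0.90) or 3 (-0.83). Its paralog Chpf2 was at 159, 193 and 187 CPM in controls and 185, 118 and 142 CPM in the labelled libraries (edgeR adjusted p = 0.439), and the groups overlapped. The exons of Chpf2 overlap with those of Smarcd3 on the opposite strand. Csgalnact1 and Csgalnact2, which add the first N-acetylgalactosamine, had group means from 7.30 to 7.38 CPM and from 42.4 to 44.5 CPM.

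Sulfation of chondroitin showed changes in both directions. Chst11 (Entrez 58250), a chondroitin 4-O-sulfotransferase gene, was at 17.2, 14.5 and 22.7 CPM in controls and 65.8, 86.5 and 59.9 CPM in the labelled libraries, 3.90-fold higher in the mean. The labelled libraries all lay above the controls, with a log2 fold change of 1.96 ± 0.24 (SE), adjusted p = 0.000235 in edgeR. Chst12, the more abundant 4-O-sulfotransferase gene, was at 291, 277 and 310 CPM in controls and 212, 180 and 154 CPM in the labelled libraries. Its log2 fold change of -0.69 ± 0.15 (SE), adjusted p = 0.0126 in edgeR lost its call without labelled replicate 3 (-0.58) and in both limma fits (-0.48 and -0.49).

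The other enzymes of chondroitin and dermatan sulfation did not pass. Chst7, a chondroitin 6-O-sulfotransferase gene, was at 23.5, 16.9 and 19.4 CPM in controls and 9.42, 7.01 and 12.3 CPM in the labelled libraries (log2 change -1.06 with an SE of 0.32, adjusted p = 0.0659 in edgeR). Chst14, the dermatan 4-O-sulfotransferase gene, was at 62.3, 70.2 and 57.3 CPM in controls and 52.4, 29.7 and 23.8 CPM in the labelled libraries (log2 change -0.84 with an SE of 0.27, adjusted p = 0.0870 in edgeR). Neither group pair overlapped, and both genes passed with DESeq2, Chst14 also without labelled replicate 1. Dse and Dsel encode the epimerases that turn chondroitin into dermatan, and Dsel was at 28.8, 24.1 and 33.5 CPM in controls and 37.4, 39.1 and 44.5 CPM in the labelled libraries (log2 change 0.49 with an SE of 0.22, adjusted p = 0.233 in edgeR), while Dse had 88.3 ± 20.2 and 71.9 ± 8.05 CPM (SD, n = 3 each). Chst3, Chst15 and Ust, for 6-O and uronyl sulfation, had group means from 6.98 to 24.7 CPM, and the highest value of Chst15, 41.1 CPM, was in labelled replicate 2.

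Of the 14 heparan polymerization and modification members tested, 2 passed and both were higher. Among all genes tested 4.68% were higher and 3.80% were lower at the same threshold. Outside the members, the heparan 3-O-sulfotransferase gene Hs3st5 was lower, as given below. Extl3 (Entrez 54616), which adds the first N-acetylglucosamine that commits a chain to heparan sulfate, was at 145, 149 and 158 CPM in controls and 257, 268 and 242 CPM in the labelled libraries. The spread within each group was small beside the difference, and the log2 fold change was 0.76 ± 0.13 (SE), adjusted p = 0.00307 in edgeR. The polymerase gene Ext2, the most abundant of this role, was at 201, 251 and 221 CPM in controls and 307, 224 and 261 CPM in the labelled libraries, and its partner Ext1 had 33.5 ± 3.26 and 34.4 ± 3.66 CPM (SD, n = 3 each). Neither passed (edgeR adjusted p = 0.445 and 0.959). Extl2, a related glycosyltransferase gene, was at 51.1, 53.6 and 65.6 CPM in controls and 52.7, 46.6 and 56.4 CPM in the labelled libraries (edgeR adjusted p = 0.781).

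Ndst1, the N-deacetylase and N-sulfotransferase that begins modification of the heparan chain, was at 149, 104 and 110 CPM in controls and 182, 260 and 194 CPM in the labelled libraries. Its highest control lay below its lowest labelled library, and the log2 fold change was 0.81 ± 0.19 (SE), adjusted p = 0.0196 in edgeR. The call was lost without control replicate 2 (0.71) or 3 (0.75) or labelled replicate 2 (0.64). Ndst2, with the same activity, was at 11.3, 8.21 and 16.2 CPM in controls and 13.6, 10.5 and 8.78 CPM in the labelled libraries, and Ndst3 had 179, 38 and 2 counts in controls and 48, 87 and 81 in the labelled libraries. Both overlapped between groups and neither passed. As given above, 4 of 6 vascular endothelial and 2 of 6 mural cell markers were higher in the labelled libraries. The summed mural cell level did not overlap between groups. The summed endothelial level, most of it Kdr, did overlap, while the other 5 endothelial markers were higher without overlap. The part of these markers in the values of Extl3, Ndst1 and Chst11 was not tested. The part of the lower keratocyte markers in the values of the lower members was not tested either.

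Of the enzymes that then modify the heparan chain, 3 had values that were higher in all labelled libraries without passing the test. Among all genes tested, 14.1% were higher without overlap between groups. Hs6st2, a heparan 6-O-sulfotransferase gene, was at 0, 2.05 and 3.33 CPM in controls and 20.04, 11.98 and 9.86 CPM in the labelled libraries (log2 change 2.96 with an SE of 0.93, adjusted p = 0.0768 in edgeR). It passed with no low-count filter, in both limma fits and without control replicate 1, the control with 0 counts. Hs2st1, the 2-O-sulfotransferase gene, was at 24.8, 11.99 and 26.4 CPM in controls and 33.0, 49.5 and 37.7 CPM in the labelled libraries (log2 change 0.93 with an SE of 0.31, adjusted p = 0.0946 in edgeR), and passed with DESeq2 and when scaled by library totals only. Hs6st1 was at 4.50, 5.10 and 4.86 CPM in controls and 7.93, 8.33 and 11.6 CPM in the labelled libraries (log2 change 0.94 with an SE of 0.40, adjusted p = 0.206 in edgeR).

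The rest of this group overlapped between conditions. Glce, the epimerase that makes iduronic acid, had 33.6 ± 18.4 and 46.0 ± 7.39 CPM (SD, n = 3 each), with control replicate 1 at 13.1 CPM apart from the other controls at 48.4 and 39.4 CPM. The 3-O-sulfotransferase genes Hs3st1, Hs3st3a1 and Hs3st3b1 had group means from 0.759 to 13.7 CPM. The extracellular 6-O-endosulfatases, which remove sulfate from finished heparan chains, did not pass (edgeR adjusted p = 0.698 for Sulf1 and 0.354 for Sulf2). Sulf1 was at 263, 265 and 315 CPM in controls and 291, 300.4 and 321 CPM in the labelled libraries, and Sulf2 had 17.2 ± 4.56 and 9.99 ± 6.06 CPM (SD, n = 3 each).

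Hyaluronan synthases were close to the limit of detection. Has1, the highest of them, had 29, 16 and 8 counts in controls and 41, 72 and 49 in the labelled libraries, which do not overlap, but it did not pass (edgeR adjusted p = 0.464). Has2 had 24, 4 and 7 counts in controls and 15, 26 and 62 in the labelled libraries, and Has3 between 0 and 34 counts in any library. At this level, with group means from 0.517 to 2.26 CPM, a difference in Has2 or Has3 was not detectable beyond the spread between replicates.

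The supply of precursors and sulfate differed at 1 gene of 5. Papss1, which makes the activated sulfate donor PAPS used by all the sulfotransferases, was at 267, 299 and 306 CPM in controls and 191, 134 and 186 CPM in the labelled libraries. It was lower in 3 of 3 labelled libraries, with a log2 fold change of -0.77 ± 0.16 (SE), adjusted p = 0.0102 in edgeR, and the call was lost without control replicate 2 (-0.75, edgeR adjusted p = 0.0523). Slc35b2, which carries PAPS into the Golgi, was at 166, 188 and 155 CPM in controls and 145, 113 and 134 CPM in the labelled libraries (log2 change -0.38 with an SE of 0.16, adjusted p = 0.185 in edgeR). Papss2, which makes the same donor, was at 25.3, 19.3 and 32.6 CPM in controls and 29.6, 22.1 and 19.7 CPM in the labelled libraries and overlapped. It did not pass, and neither did the UDP-glucose dehydrogenase gene Ugdh (43.9 ± 7.89 and 43.4 ± 6.29 CPM) and the sulfate transporter gene Slc26a2 (23.3 ± 4.80 and 31.7 ± 4.15 CPM, SD, n = 3 each).

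Genes with the same or a related reaction were compared within each library, as the share that 1 gene takes of the summed TPM of its family, which does not depend on how libraries are scaled. The 8 families were chosen with the single-gene results known, and an exact permutation test of 3 against 3 libraries (two-sided) cannot go below p = 0.1. Chsy3 made up 77.8%, 67.4% and 72.6% of Chsy1 and Chsy3 together in controls and 35.6%, 32.6% and 33.4% in the labelled libraries, so that Chsy1 was the more abundant synthase gene in all 3 of the latter. Chst11 made up 1.81 ± 0.308% of Chst11 and Chst12 in controls and 10.5 ± 1.96% in the labelled libraries, and B3gnt7 96.5 ± 1.09% and 82.1 ± 3.23% of B3gnt2 and B3gnt7 (SD, n = 3 each). Both B3gnt7 and Chst12 thus remained the most abundant gene of their pair in every library.

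Extl3 took 55.5 ± 2.27% of the Extl family in controls and 69.7 ± 2.68% in the labelled libraries, and Ndst1 78.6 ± 2.41% and 86.4 ± 2.35% of the Ndst family (SD, n = 3 each). Chpf took 56.99 ± 4.28% of Chpf and Chpf2 in controls and 44.7 ± 4.12% in the labelled libraries (SD, n = 3 each). In these 6 families the groups did not overlap, with an exact permutation p = 0.1 each and 0.133 after Benjamini-Hochberg adjustment over the 8 families. The share of Papss1 among Papss1 and Papss2 (94.1 ± 1.37% and 90.9 ± 1.86%, SD, n = 3 each, exact permutation p = 0.2, adjusted 0.229) and that of Chst5 among Chst1, Chst2 and Chst5 (96.9 ± 0.387% and 96.2 ± 1.60%, SD, n = 3 each, exact permutation p = 0.8) overlapped between groups.

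**Figure D4:**
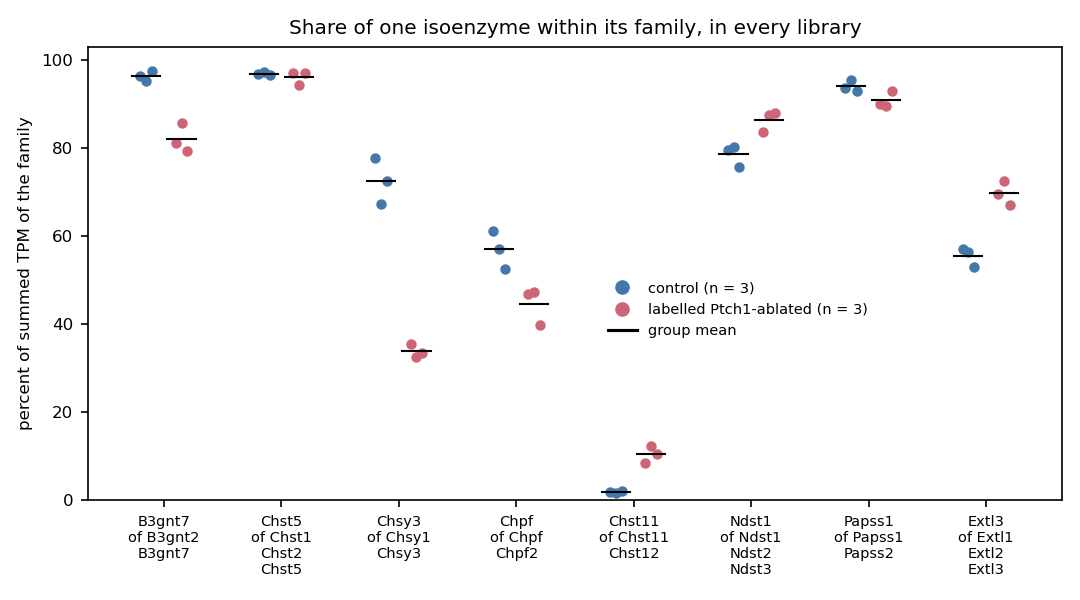
Percent of the summed TPM of a family taken by 1 gene, in each control library and each library labelled Ptch1-ablated (n = 3 each), with a line at the group mean. Chsy3 moves from 67.4 to 77.8% of its pair in controls to 32.6 to 35.6%, while Chst5 stays above 94% of the keratan sulfate sulfotransferase genes in every library.

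Other genes of the pathway were examined by lists of core proteins, further enzymes, precursor supply and degradation. Of 80 such genes with values, 75 were tested, of which 6 were higher and 9 lower with an adjusted p up to 0.05 in edgeR, beside the 8.48% of all genes given above. Genes listed for proteins that carry the chains moved in both directions. Of the 6 genes listed for keratan sulfate core proteins Kera was lower and Fmod, Prelp and Omd were higher, and Lum and Ogn did not pass. Means in controls and labelled libraries (SD, n = 3 each) were 13452 ± 860.1 and 4472 ± 917.9 CPM for Kera (keratocan), 1256 ± 86.0 and 2797 ± 145 CPM for Fmod (fibromodulin) and 2361 ± 71.1 and 3525 ± 242 CPM for Prelp. Osteomodulin (Omd) was at 3.03, 1.68 and 8.62 CPM in controls and 15.7, 15.6 and 25.3 CPM in the labelled libraries (log2 change 2.08 with an SE of 0.54, adjusted p = 0.0320 in edgeR). Of 9 chondroitin and dermatan sulfate carriers tested 2 were lower, Bgn (biglycan, 4189 ± 49.3 and 2636 ± 160.4 CPM, SD, n = 3 each) and the hyaluronan receptor gene Cd44, which went from 218 ± 11.7 to 133 ± 6.08 CPM (SD, n = 3 each, log2 change -0.71 with an SE of 0.14, adjusted p = 0.00609 in edgeR).

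Among 13 heparan sulfate core proteins the cell-surface syndecan gene Sdc1 was lower, at 437, 524 and 484 CPM in controls and 276, 203 and 260 CPM in the labelled libraries (log2 change -0.97 with an SE of 0.15, adjusted p = 0.00133 in edgeR). The basement membrane proteoglycan genes Col18a1 and Hspg2 (perlecan) were higher. Col18a1 went from 30.8 ± 3.89 to 95.6 ± 5.43 CPM (log2 change 1.63 with an SE of 0.18, adjusted p = 0.000108 in edgeR) and Hspg2 from 130 ± 21.1 to 228 ± 35.7 CPM (log2 change 0.82 with an SE of 0.17, adjusted p = 0.0103 in edgeR), with SD and n = 3 for each mean. The remaining 10 did not pass.

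Of 12 further chain-modifying enzymes tested 2 passed. Hs3st5, a heparan 3-O-sulfotransferase gene, was at 34.4, 32.4 and 39.1 CPM in controls and 8.10, 8.41 and 4.55 CPM in the labelled libraries, 5.03-fold lower (log2 change -2.33 with an SE of 0.30, adjusted p = 0.000355 in edgeR). The sialyltransferase gene St3gal4 was at 10.8, 7.94 and 6.87 CPM in controls and 45.9, 39.6 and 40.4 CPM in the labelled libraries, 4.91-fold higher (log2 change 2.29 with an SE of 0.26, adjusted p = 0.000138 in edgeR). Of 17 genes for sugar nucleotides and sulfate supply, Ugp2, which makes UDP-glucose, was lower at 40.4 ± 5.76 CPM against 83.3 ± 14.2 CPM in controls (SD, n = 3 each, log2 change -1.04 with an SE of 0.20, adjusted p = 0.00609 in edgeR).

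Enzymes that degrade the chains included 3 lower genes and none that was higher among 18 tested, with a list median log2 fold change of -0.34 beside 0.0046 over all genes. Cemip, a gene required for hyaluronan breakdown, was at 69.3, 70.4 and 72.9 CPM in controls and 31.2, 32.9 and 21.7 CPM in the labelled libraries (log2 change -1.31 with an SE of 0.21, adjusted p = 0.00180 in edgeR). Ids, the lysosomal iduronate sulfatase gene, went from 87.9 ± 5.18 to 36.9 ± 0.632 CPM (SD, n = 3 each, log2 change -1.25 with an SE of 0.17, adjusted p = 0.000505 in edgeR). Naglu, the gene of the lysosomal alpha-N-acetylglucosaminidase, was at 126, 143 and 122 CPM in controls and 85.1, 62.1 and 66.3 CPM in the labelled libraries (log2 change -0.87 with an SE of 0.17, adjusted p = 0.00755 in edgeR).

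**Figure D5:**
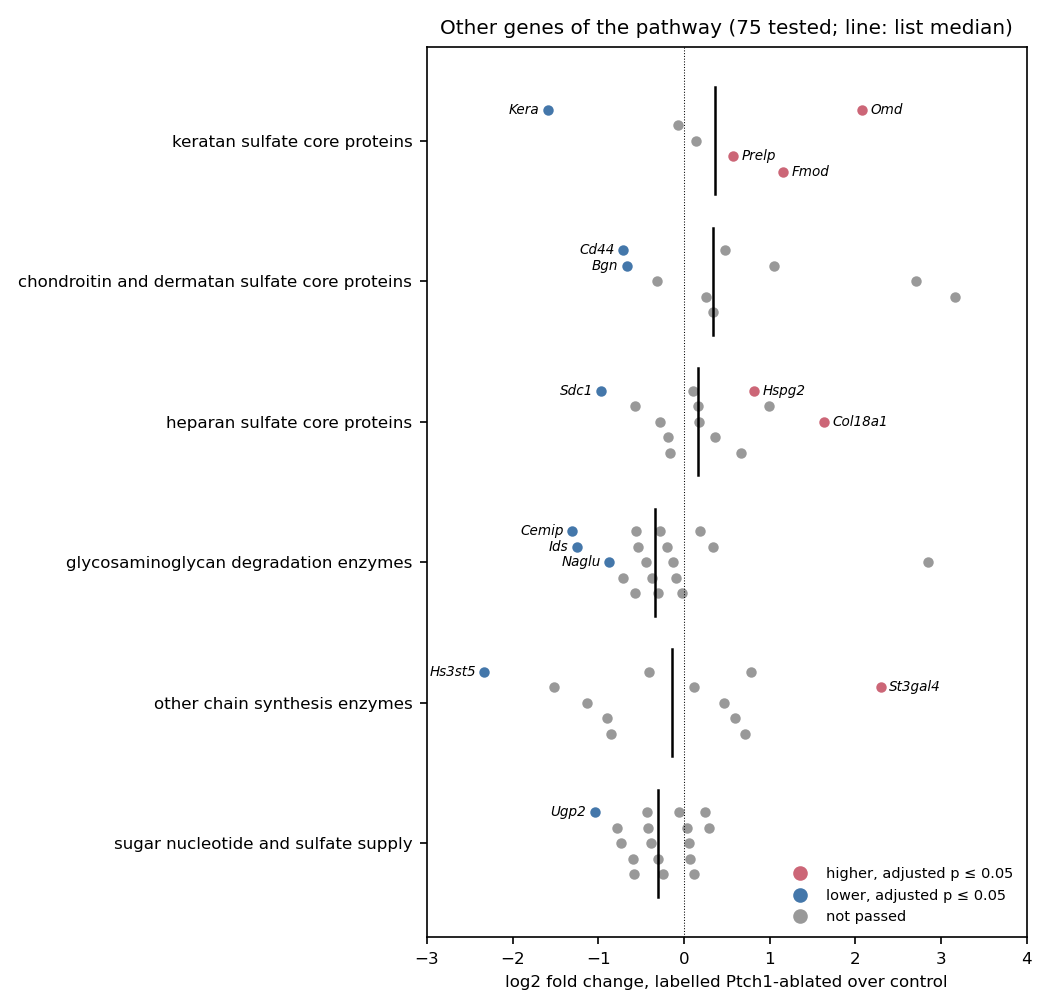
Log2 fold change of the libraries labelled Ptch1-ablated over controls for the 75 other pathway genes tested, in 6 lists, each with a line at its median and with the genes past an adjusted p of 0.05 named. The degradation enzymes have a median of -0.34 and 3 lower genes, while core proteins include genes past the threshold on both sides.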

How the data were processed

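Bulk RNA-seq covered keratocytes of 3 control and 3 labelled Ptch1-ablated samples, with groups and replicate numbers read from the titles. The labels name an Illumina TruSeq kit, whereas the methods name ribosomal RNA depletion and a BGISEQ instrument. The authors aligned reads with Bowtie2 (2.2.5) and deposited RSEM (1.2.12) expected counts that are not normalized, TPM scaled by effective length to a common sum, and FPKM scaled by length and library. The submitters' processing notes name the build mm9, for which no genome was used here, so the coordinates given are those of 3 RefSeq promoter windows on GRCm38.p6. The annotation release and strandedness are not given in the sources used here. The authors' group averages and FPKM were not used further. A fractional part was present in 18.6% of the expected counts.

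Expected counts were rounded, 13888 of 17606 genes were kept by filterByExpr, and TMM scaling and edgeR's quasi-likelihood test (glmQLFTest, two-sided, no covariates, Benjamini-Hochberg over all genes tested) were used. CPM uses TMM-scaled totals. SE is the log2 fold change over the root of F. The labels do not say whether replicates are separate animals, though the methods call them biological. The p-values therefore set group differences against the spread between these libraries, which need not be that between animals. No pair of libraries in a group agreed within sampling noise (smallest chi-square per degree of freedom 35.1). The scripts were tested on simulated data. The members, lists and families were chosen with earlier results of these data known. Named genes were all members, with per-library values for those that passed, the most abundant of a role and their relatives, and per other list up to 4 passing genes in each direction. Fold changes are given for members with an unadjusted p under 0.05 or past the threshold in an alternative. Alternatives were DESeq2, RLE and upper quartile scaling, other count filters, other thresholds, leaving out each library, a replicate block and limma on log2(TPM + 1) and log2(TPM + 0.1). Scaling by library totals only was chosen after seeing the data. Python 3.11.15 with pandas 2.3.3 and matplotlib 3.10.9 was used beside R 4.3.3 with DESeq2 1.42.0, limma 3.58.1 and edgeR 4.0.16. One gene of the degradation list is not reported here and was left out of that list's counts and median.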

Additional observations from a re-analysis of the deposited data

How the results depend on the processing

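In all 15 alternative fits the 10 members past the threshold kept their direction. B3gnt7, Chsy3, Chst5, Chst11 and Extl3 passed in each of them, while Chst2, Chpf, Chst12, Ndst1 and Papss1 lost their call in the alternatives named beside them. Of the 47 members tested that did not pass, 19 changed sign in some alternative. No direction is read from their values, including the folds of Ndst3 given below. Members called higher numbered 3 and rose to 5 with DESeq2, with limma on log2(TPM + 1) or log2(TPM + 0.1), and at an adjusted p of 0.1, and ran from 2 to 4 with 1 library left out. Members called lower numbered 7, with 9 in DESeq2 and at an adjusted p of 0.1, 5 in both limma fits, and 5 to 8 with 1 library left out. Members called with at least 2-fold numbered 4 and ran from 3 (RLE scaling) to 6 (both limma fits) over the alternatives. Chst2 lay at the fold limit, with a log2 fold change of -1.006 in the main fit and -0.998 with RLE scaling. All genes past the threshold numbered 1178, with 778 (without control replicate 2) to 1015 when 1 library was left out, 1736 in DESeq2, 1623 and 1429 in the limma fits and 1410 with library totals only, so the share of all genes beside the members moves as well. Scaling by library totals only moved the median log2 fold change of all genes from 0.0046 to 0.173, and limma on TPM moved it to 0.192 and 0.221, so fold changes on those scales are read relative to that shift. Replicates with the same number deviated from their group means with correlations of -0.022, -0.063 and 0.039, and nothing in the labels pairs them. With the replicate block the counts were 7 members lower and 3 higher, the same 10 genes, and 942 of all genes. The hyaluronan synthases, Xylt1 and Chst1 had control means under 1 CPM, where values rest on few counts.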

Other observations

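St3gal4 was 4.91-fold higher by mean CPM and 9.38-fold higher by mean TPM (4.50 ± 1.998 against 42.2 ± 4.06 TPM, SD, n = 3 each), the widest gap between the scales among the other pathway genes with both groups above 1 TPM. Among the members with both groups above 1 TPM, Ndst3 had the widest such gap, at 0.874-fold by CPM and 1.69-fold by TPM, from 179, 38 and 2 counts in controls and 48, 87 and 81 counts in the labelled libraries.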
